A study of Mus musculus with 20 samples.

Results

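Splenic B cells lacking the kinase TAK1 were compared after 24 h of stimulation through the B cell receptor with the same cells before stimulation. The comparison rests on 4 of the 20 arrays of the series, namely the 2 arrays of TAK1-deleted cells at 24 h of anti-IgM and the 2 arrays of TAK1-deleted cells at 0 h, chosen by their labelled genotype and time. The cells came from C57BL/6 mice of 8 to 12 weeks and of mixed sex, and were enriched by removing CD43-bearing spleen cells with magnetic beads. TAK1-deleted mice carried mb-1 and homozygous floxed TAK1 (mb-1/TAK1f/f), mb-1 being the gene of the Igα chain, whose locus drives Cre recombinase in the B lineage from early stages on. The reference mice carried mb-1 with intact TAK1 (wild type, mb-1/TAK1+/+), and their 2 arrays at 24 h and 2 arrays at 0 h served to test whether the 24 h change differed with genotype. The 2 arrays of TAK1-deleted cells at 6 h served to separate late changes from early ones. Stimulated cells received anti-IgM, an antibody that cross-links surface IgM, at 10 µg/ml. The 0 h cells were not stimulated, and the labels do not say whether they were cultured, so that an effect of culture alone cannot be told apart from that of anti-IgM. Whether the 2 replicates of a group came from separate mice is not stated either, so the spread behind each p-value may be only technical.

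Cross-linking of the B cell receptor starts a calcium branch that acts through calcineurin and NFAT, a MAP kinase branch, a PI3 kinase branch that excludes FOXO factors from the nucleus, and a branch through TAK1 and the IκB kinase complex that releases NF-κB. Within a day a resting B cell so stimulated normally grows, induces genes of ribosome formation and DNA replication, and with sufficient survival signals enters the cell cycle. TAK1, encoded by Map3k7, also feeds JNK and p38, and Bcl2l1 and other survival genes are classical NF-κB targets.

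Expression is given as log2 intensity, on which a difference of 1 is a doubling, and changes are log2 differences ± standard error with the Benjamini-Hochberg adjusted p from limma. Levels of different probe sets were not set against each other. The pan B cell markers had a mean level over 14 genes of 12.93 and 12.81 in the arrays at 0 h and 12.25 and 12.17 in those at 24 h, and markers of other cell types, given further on, were measured on the same arrays. Since levels of different probe sets are not comparable, these means do not test how pure the cells were. Replicates correlated across genes with r of 0.982 at 0 h and 0.992 at 24 h, genes not being independent replicates. The probe set of Map3k7 read 10.60 and 10.40 at 0 h and 10.65 and 10.55 at 24 h, against 10.32 and 10.16 at 0 h in wild type, and the part of the gene it reads was not checked against the deletion, so it does not test the genotype. Of 11968 genes tested, 27.6% changed between 0 and 24 h in TAK1-deleted cells (adjusted p below 0.05), with 1785 (14.9%) higher and 1516 (12.7%) lower, and the median change of all genes was 0.04. Counts of list members higher or lower at 24 h are to be read beside these shares. The change was at least 1 on the log2 scale for 320 of the genes that rose and −1 or lower for 512 of those that fell. With the replicate number as a block the calls numbered 5340. Without replicate 1 at 24 h they numbered 2069, with 928 higher, and without replicate 2 at 0 h 1057 were higher. Without replicate 1 at 0 h 944 genes were lower, and without replicate 2 at 24 h 995. The calls of 806 genes that rose and 849 that fell held whichever array was left out.

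**Figure D1:**
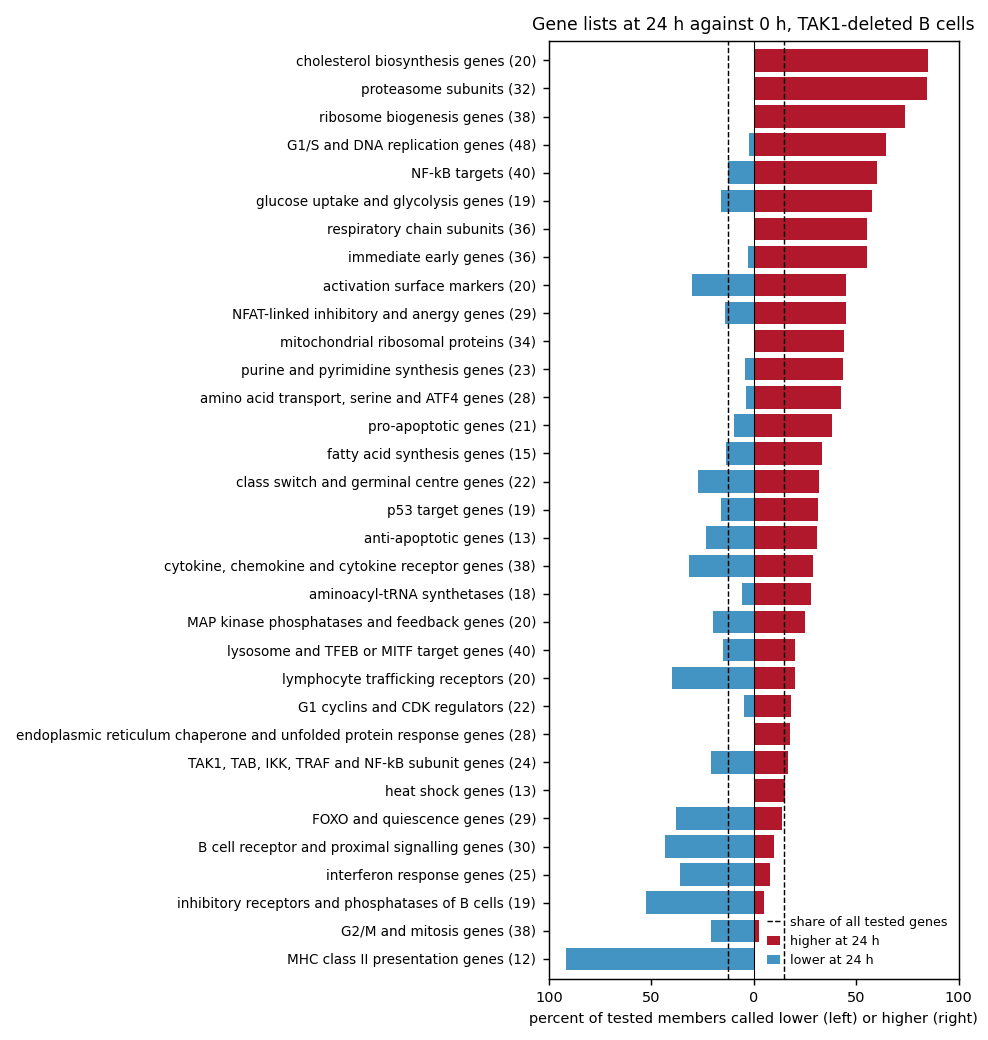
Percent of the tested members of each of the 33 pathway lists called higher (red, right) or lower (blue, left) at 24 h against 0 h in TAK1-deleted cells, with 2 arrays a group and the number of tested members in brackets. The dashed lines mark the shares over all tested genes, 14.9% higher and 12.7% lower; cholesterol biosynthesis (17 of 20 higher) and MHC class II presentation (11 of 12 lower) lie at the ends.

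Immediate early genes, which are switched on within an hour of receptor engagement, stood in different states at 24 h. Of 36 tested members 20 were higher than at 0 h and 1 was lower, with a median of 0.53. The count was 11 without replicate 1 at 24 h and 12 without replicate 2 at 0 h. The orphan nuclear receptors of the Nr4a family, transcription factors induced by calcium signals and linked to restraint of lymphocytes, stayed high. Nr4a3 read 7.76 and 7.44 at 0 h and 11.23 and 11.09 at 24 h, a rise of 3.56 ± 0.16 (limma adjusted p = 4.76e-10), after a mean of 12.97 at 1 h and 11.67 at 6 h. Nr4a2 went from 7.39 and 7.09 to 10.47 and 10.26, and Nr4a1 from 10.60 and 10.17 to 12.66 and 12.56. In all 3 genes both 24 h arrays lay far above both 0 h arrays and below the 1 h mean. Egr2, a zinc finger factor of the calcineurin and MAP kinase branches, read 9.09 and 8.40 at 0 h and 12.15 and 12.09 at 24 h (3.37 ± 0.22, adjusted p = 1.8e-08). Its mean was 12.95 at 1 h and 11.75 at 6 h, so the 24 h arrays lay within the range of the earlier times. Egr1 of the same family, at 12.51 at 1 h, was only 0.73 ± 0.19 above its start at 24 h (adjusted p = 0.00966), with 10.01 and 9.68 at 0 h and 10.61 and 10.54 at 24 h. The kinase gene Plk3 rose by 2.78 ± 0.28, from 8.83 and 8.23 to 11.48 and 11.16.

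Other early genes had returned to or below their starting level. Fosb, an AP-1 subunit, averaged 13.08 at 1 h and 7.90 at 6 h, and its 24 h arrays at 7.48 and 7.69 lay below the 0 h arrays at 8.29 and 8.16, a fall of 0.64 (−0.64 ± 0.17, adjusted p = 0.00912). It was the only called member of the list that fell. Cd69, a lectin that retains activated lymphocytes in tissue, averaged 12.83 at 1 h and 11.67 at 6 h and read 10.27 and 10.02 at 24 h against 10.52 and 10.26 at 0 h. The difference of −0.25 ± 0.15 did not pass the test (adjusted p = 0.262) but did so with the replicate block (adjusted p = 0.0128). Myc, the growth factor-induced transcription factor, averaged 13.72 at 1 h and read 11.88 and 11.77 at 24 h against 12.02 and 11.56 at 0 h, values that overlap (0.04 ± 0.15, adjusted p = 0.899). In wild type cells Myc stood at 12.61 and 12.55 at 24 h against 11.67 and 11.44, so that its change differed between the genotypes by −0.99 ± 0.22 (adjusted p = 0.00858).

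**Figure D2:**
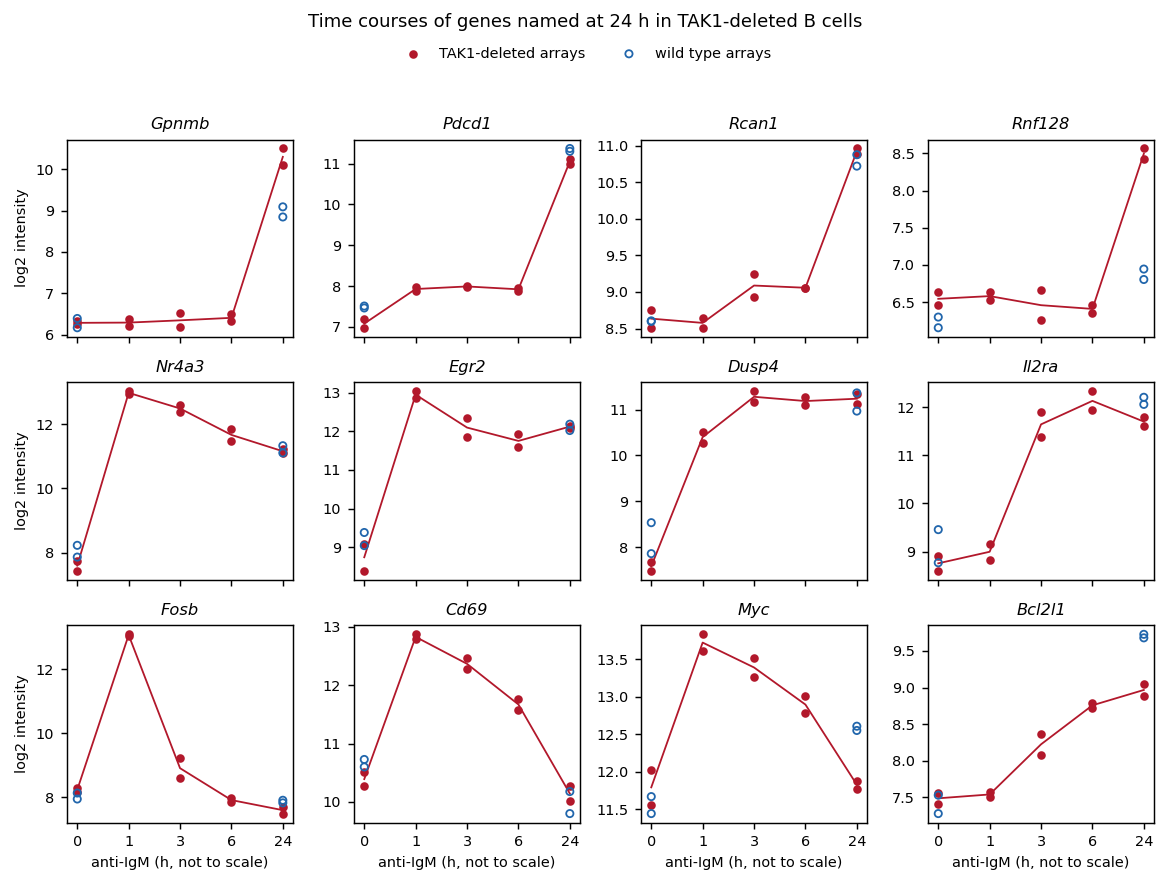
Log2 intensity of 12 genes in the TAK1-deleted arrays (filled points, 2 arrays at each of 0, 1, 3, 6 and 24 h, line through the means, time axis not to scale) and in the wild type arrays at 0 and 24 h (open points). Gpnmb, Pdcd1, Rcan1 and Rnf128 are high only at 24 h among the times shown, Nr4a3, Egr2, Dusp4 and Il2ra were already high by 3 h, and Fosb, Cd69 and Myc are back near their 0 h level, Myc at 11.88 and 11.77 against 12.61 and 12.55 in wild type.

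The largest rises at 24 h included genes that rose mostly after 6 h. Gpnmb, a transmembrane glycoprotein of lysosomes and a known target of MITF and TFE factors, read 6.25 and 6.32 at 0 h, averaged 6.40 at 6 h, and read 10.10 and 10.50 at 24 h. This is a 16.2-fold difference (4.02 ± 0.16, adjusted p = 1.53e-10), and since both 0 h arrays are dim and the values keep a background, the fold may be understated. Pdcd1, which encodes the inhibitory receptor PD-1, read 6.98 and 7.18 at 0 h and 11.12 and 10.99 at 24 h (3.97 ± 0.13, adjusted p = 3.07e-11), and 3.13 of that lay after 6 h (adjusted p = 8.07e-10). Fscn1, an actin-bundling protein, went from 9.22 and 9.04 to 12.34 and 12.00, with a 6 h mean of 9.72. The groups do not overlap in any of these genes, as in 60.1% of all tested genes. The largest rises were picked by size among called genes without overlap, so their separation is no separate evidence.

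Genes of the NFAT-linked inhibitory and anergy list numbered 13 higher and 4 lower of 29 tested, with a median of 0.34, the lower ones reaching 8 with the replicate block. The lower count of 4 is near the share of all tested genes (12.7%). Besides Pdcd1, Egr2, Nr4a2 and Nr4a3 the members that rose included Rcan1, Rnf128 and Lag3, which are named here after their values were seen. Rcan1, an inhibitor of calcineurin and itself an NFAT target, read 8.76 and 8.51 at 0 h and 10.96 and 10.89 at 24 h (2.29 ± 0.13, adjusted p = 3.86e-09), against a 6 h mean of 9.06. Rnf128, the E3 ubiquitin ligase known as GRAIL and first described in anergic T cells, went from 6.63 and 6.46 to 8.57 and 8.43 (1.95 ± 0.15, adjusted p = 8.4e-08) with 6.41 at 6 h. Lag3, an inhibitory receptor that binds MHC class II, went from 7.91 and 7.63 to 8.99 and 8.99 (1.22 ± 0.15, adjusted p = 2.06e-05). All 3 were late rises, each above its 6 h mean by 1.55 to 2.09. Wild type cells raised Rcan1 by 2.20 but Rnf128 by 0.65 and Lag3 by 0.13, and the change was larger in TAK1-deleted cells by 1.30 ± 0.21 for Rnf128 (adjusted p = 0.000893) and 1.09 ± 0.22 for Lag3 (adjusted p = 0.00468). The called members that fell were led by Havcr2, which encodes the inhibitory receptor TIM-3 (−2.62), and Btla, an inhibitory receptor of resting lymphocytes (−1.44), with Entpd1, an ectonucleotidase, at −1.09 and Dgka, a diacylglycerol kinase, at −0.73.

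Feedback genes of the MAP kinases split by gene. Dusp4, a nuclear phosphatase of ERK, JNK and p38, read 7.68 and 7.49 at 0 h and 11.34 and 11.13 at 24 h (3.65 ± 0.19, adjusted p = 1.82e-09) and had averaged 11.18 at 6 h. Dusp5, specific for ERK, was 10.47 and 10.48 at 24 h against 9.32 and 8.98 (1.33 ± 0.20, adjusted p = 0.000109), and its change exceeded that of wild type cells, 0.19, by 1.14 ± 0.28 (adjusted p = 0.0175). Dusp6, the cytoplasmic ERK phosphatase, fell by 1.64, from 10.72 and 10.60 to 9.20 and 8.84, and Dusp10, specific for JNK and p38, fell by 1.13. Over the list of 20 genes 5 were higher and 4 lower, with a median of −0.01, where 14.9% of all tested genes were higher and 12.7% lower. The higher count was 3 without replicate 2 at 0 h and without replicate 1 at 24 h. The lower count was 2 without replicate 1 at 0 h or either 24 h array, and 7 with the block.

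Targets of NF-κB, the factor that TAK1 helps to release, were higher in 24 of 40 tested genes and lower in 5 (3 without replicate 1 at 0 h or either 24 h array), with a median of 0.64. In wild type cells 16 of the same 40 were higher and 9 lower, where 23.6% of all tested genes were higher and 20.2% lower, against 14.9% and 12.7% in TAK1-deleted cells. The change from 0 to 24 h was more positive in TAK1-deleted cells for 8 of the 40 and more negative for 1. The median difference was 0.25, and over all tested genes 4.62% were more positive and 4.04% more negative. Chemokine genes made the largest rises. Ccl3 read 9.39 and 8.80 at 0 h and 12.54 and 12.60 at 24 h (3.47 ± 0.21, adjusted p = 5.55e-09), Ccl4 went from 7.56 and 7.64 to 10.72 and 10.55, and Ccl22 from 7.19 and 7.17 to 10.04 and 9.92. The 1 h mean of Ccl3, 13.60, was above its 24 h values, whereas Ccl22 had averaged 7.18 at 1 h and 9.28 at 6 h. Slc2a6, a lysosomal hexose transporter, rose from 10.20 and 10.04 to 12.19 and 12.11 (2.03 ± 0.12), more than in wild type by 0.77 ± 0.17 (adjusted p = 0.0078). Gadd45b, a stress sensor upstream of p38, rose by 1.79 ± 0.11 and by more than in wild type (0.77 ± 0.16, adjusted p = 0.00497). The called members that fell included Lta, which encodes lymphotoxin alpha (9.35 and 8.96 to 6.75 and 6.84), Birc3, an inhibitor of apoptosis protein (−0.80), Cd40, the costimulatory receptor (−0.70), and Cxcr5, the follicle-homing receptor (−0.44).

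Nfkbia and Tnfaip3, which encode feedback inhibitors of NF-κB, did not pass the test at 24 h. Nfkbia, the gene of IκBα, read 11.48 and 11.41 at 0 h and 11.64 and 11.51 at 24 h (0.13 ± 0.10, adjusted p = 0.356) after 12.13 at 1 h. Tnfaip3, the gene of A20, read 9.44 and 9.32 at 0 h and 9.88 and 9.63 at 24 h (0.37 ± 0.16, adjusted p = 0.0894; 0.0034 with the replicate block) after 10.98 at 1 h. At 24 h both were below their 1 h mean. The change in TAK1-deleted cells minus that in wild type was 0.03 ± 0.13 for Nfkbia and −0.36 ± 0.22 for Tnfaip3 and did not pass the test (adjusted p = 0.965 and 0.44). Among 24 genes of TAK1, TAB, IKK, TRAF and NF-κB subunits 4 were higher and 5 lower, the latter 2 without replicate 1 at 0 h or replicate 2 at 24 h, 3 without replicate 1 at 24 h and 10 with the block. Of all tested genes 14.9% were higher and 12.7% lower, so the higher count of this list is near the share of all genes. The subunit genes Rel (12.70 and 12.60 to 13.35 and 13.25, 0.65 ± 0.10, adjusted p = 0.00013) and Relb (0.77) rose, as did the adaptor Traf1 (0.94) and the kinase Map2k3 (0.84). Among those that fell were Map2k6, a kinase upstream of p38 (−1.45), Mapk14, which encodes p38α (−0.99), Traf5 (−0.71) and Ikbkb (−0.61).

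Genes that govern survival moved in both directions. Bcl2l1, the gene of Bcl-xL, read 7.41 and 7.56 at 0 h and 8.89 and 9.05 at 24 h (1.48 ± 0.13, adjusted p = 4.01e-07), with means of 8.22 at 3 h and 8.76 at 6 h. Wild type cells reached 9.73 and 9.68 from 7.28 and 7.53, so their arrays at 24 h lay above both TAK1-deleted arrays, and the change in TAK1-deleted cells was smaller by 0.82 (−0.82 ± 0.18, adjusted p = 0.00937), a call lost when single arrays were left out. Pim2, a survival kinase, rose late, from 10.20 and 9.85 to 11.90 and 11.77 (1.81 ± 0.21, adjusted p = 8.22e-06) against a 6 h mean of 10.25. Its rise in wild type was 0.84, and the difference between the genotypes passed only with the replicate block (adjusted p = 0.0555, and 0.000229 with the block). Of 13 anti-apoptotic genes 4 were higher, the others being Traf1 and Pim3, and 3 were lower, namely Bcl2 (12.32 and 12.12 to 11.45 and 11.41), Mcl1 (12.31 and 12.17 to 11.62 and 11.46) and Birc3.

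On the pro-apoptotic side 8 of 21 tested genes were higher and 2 lower, with a median of 0.19. Bcl2l11, which encodes the BH3-only protein Bim, read 9.85 and 9.61 at 0 h and 11.48 and 11.40 at 24 h (1.71 ± 0.17, adjusted p = 1.91e-06) and had been at 12.06 at 3 h. Casp4, an inflammatory caspase, rose by 2.11 ± 0.37, with unlike arrays at 0 h, 9.07 and 7.97, and 10.60 and 10.67 at 24 h. Pmaip1, the gene of Noxa, rose by 0.78 and Tnfrsf10b, a TRAIL receptor, by 0.91. Bmf, another BH3-only gene, named here after its values were seen, went from 9.70 and 9.65 to 10.49 and 10.42 (0.78 ± 0.11, adjusted p = 5.63e-05), whereas in wild type cells it changed by −0.21, a difference of 0.99 ± 0.15 (adjusted p = 0.000695). Fas, the death receptor, likewise rose by 0.77 ± 0.19 (6.56 and 6.46 to 7.23 and 7.33) where the wild type change was −0.40, and the difference of 1.17 ± 0.27 passed (adjusted p = 0.0104). Fas started lower in TAK1-deleted cells, by 0.82 (−0.82, adjusted p = 0.03), and wild type read 6.99 and 6.86 at 24 h. The called members that fell were Casp9 (−0.46) and Trp53inp1, a p53 target that promotes death and autophagy (−0.65), the latter falling by less than in wild type (−1.94, difference 1.30 ± 0.15, adjusted p = 0.000105).

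Of 48 genes of G1/S and DNA replication 31 were higher at 24 h and 1 lower, with a median of 0.59, and the count was 20 without replicate 1 at 24 h. In wild type cells 47 of the 48 were higher, where 43.8% of all tested genes changed, 23.6% higher and 20.2% lower. Uhrf1, which recruits the maintenance DNA methyltransferase to replicating DNA, read 8.74 and 8.52 at 0 h and 10.03 and 10.04 at 24 h (1.40 ± 0.13, adjusted p = 1.09e-06). Orc1, the largest subunit of the origin recognition complex, went from 7.20 and 6.85 to 8.42 and 8.30, and Mcm3, a subunit of the replicative helicase, from 9.50 and 9.33 to 10.71 and 10.67. For these 3 genes the 24 h arrays were separate from the 0 h arrays, and the wild type rise was larger, by 0.97, 1.53 and 0.92 (differences of −0.97, −1.53 and −0.92, adjusted p = 0.00395, 0.000151 and 0.00417). The helicase genes Mcm2 and Mcm7 behaved likewise, with rises of 0.85 and 0.79 against 1.82 and 1.96 in wild type. The one member that fell was E2f2, an activator E2F, at −0.63, and it fell to a like extent in wild type, −0.60.

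At 0 h 7 of the 48 G1/S genes were higher in TAK1-deleted cells than in wild type and 0 were lower, with a median of 0.33. Of all tested genes 1.5% were higher. Orc1 was among the 7, so its difference of −1.53 in the change includes a higher start. A few replication genes did not rise and had started higher than in wild type. Rrm2, the inducible subunit of ribonucleotide reductase, read 10.68 and 10.11 at 0 h and 10.46 and 10.19 at 24 h, which overlap (−0.07 ± 0.20, adjusted p = 0.84), while wild type went from 9.37 and 9.35 to 11.40 and 11.01. Ccne2, the gene of cyclin E2, read 8.34 and 8.22 at 0 h and 8.18 and 8.20 at 24 h (−0.09 ± 0.16, adjusted p = 0.746), while wild type went from 7.40 and 7.32 to 9.37 and 8.96. At 0 h these genes were higher in TAK1-deleted cells by 1.04 and 0.92 (adjusted p = 0.00751 and 0.00381), where 2.32% of all tested genes differed, 1.5% being higher and 0.819% lower, so their differences of −1.92 and −1.89 in the change hold both a higher start and a lower end. Both are named here after their values were seen. Erythroid markers were higher in the same 0 h arrays, and their part in the higher start was not tested.

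Of 38 tested genes of G2/M and mitosis 1 was higher than at 0 h and 8 were lower, with a median of −0.19, whereas 36 were higher and 0 lower in wild type. Against 6 h, 21 of the 38 were higher at 24 h and 0 lower, with a median of 0.59, where 10.8% of all tested genes were higher. The count of genes lower than at 0 h was 3 without replicate 1 at 0 h, 5 without replicate 2 at 24 h and 14 with the replicate block. Ccnb2, the gene of cyclin B2, read 10.73 and 10.26 at 0 h and 9.27 and 9.35 at 24 h (−1.18 ± 0.16, adjusted p = 4.64e-05). Mki67, the gene of the proliferation antigen Ki-67, read 10.78 and 10.61 at 0 h and 9.96 and 9.82 at 24 h (−0.80 ± 0.13, adjusted p = 0.000192), while wild type rose from 9.95 and 10.01 to 11.13 and 10.85. Plk1, the mitotic kinase, fell by 1.01 and Ccna2, the gene of cyclin A2, by 0.77, against rises of 1.09 and 1.47 in wild type, with differences of −2.10 ± 0.32 and −2.25 ± 0.29 (adjusted p = 0.00063 and 0.000168). Mki67 and Ccna2 are named after their values were seen. The mitotic genes Ube2c and Hmmr fell by 0.97 and 0.99. At 6 h these genes had been lower still for Mki67 (8.98) and Ccna2 (9.19), which were above that at 24 h by 0.91 and 1.05 (adjusted p = 0.00011 and 0.00157). The 1 member that rose was Bub1b, a spindle checkpoint kinase, at 0.65 ± 0.16. At 0 h Mki67, Ccna2, Ccnb2 and Plk1 were all higher in TAK1-deleted cells, by 0.72 to 1.28. Erythroid markers, described further on, were also higher in those 0 h arrays, and their part in the higher start of these genes was not tested.

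**Figure D3:**
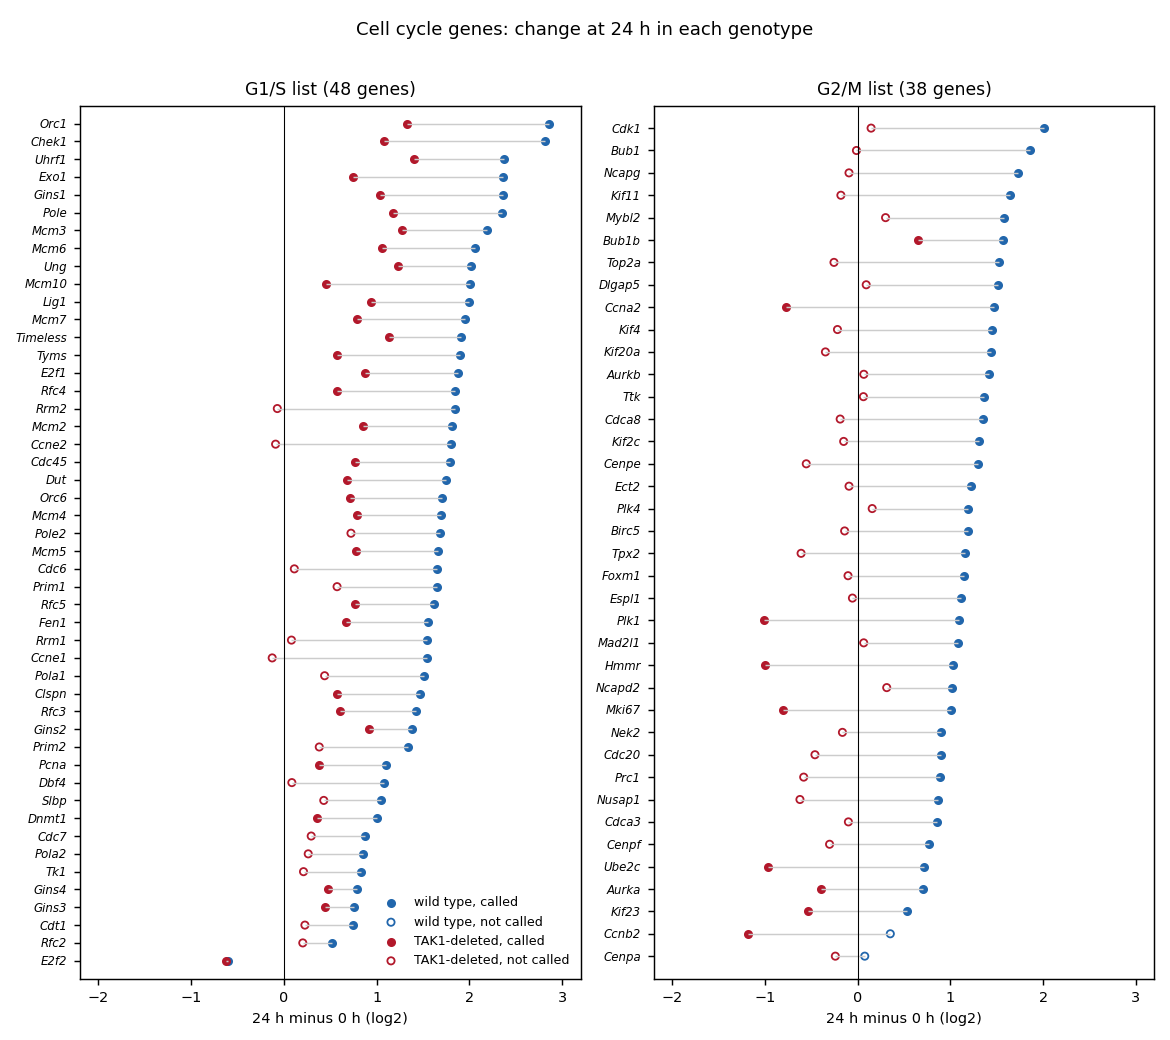
Change from 0 to 24 h (log2, 2 arrays a group) of each tested gene of the G1/S list (left, 48 genes) and the G2/M list (right, 38 genes) in TAK1-deleted (red) and wild type cells (blue), with filled points where the change was called. In the left panel 31 red points are called above 0 and lie to the left of most blue points; in the right panel 8 are called below 0 while 36 blue points are called above it.

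Promoters of some of these genes are shown so that the letters counted in the G1/S and G2/M lists can be seen in their sequence. RefSeq promoters (build GRCm38.p6) were searched on both strands over the 250 bases before the gene start, a gene counting when any of its promoters held a match. Of 48 G1/S and 38 G2/M genes 39 and 32 were in that table. The letters TTCCCGC or TTTGGCG, which resemble E2F sites, were found for 11 of 39 G1/S genes (28.2%) and 2 of 32 G2/M genes (6.25%), against 9.95% of the 9586 tested genes with a promoter. The letters CCAAT, which NF-Y binds, were found for 26 of the 32 mitotic genes (81.2%), and for 21 of the 39 in the G1/S list (53.8%), against 39.8%. The letters TTTGAA, which resemble the cell cycle homology region, were found for 13 of the 32 mitotic genes (40.6%), and for 7 of the 39 in the G1/S list (17.9%), against 12.5%. These are descriptions of letters, not of bound sites, and nothing about a factor was measured. The 2 G1/S promoters below (Uhrf1 at chr17:56303087-56303336, plus strand, and Mcm7 at chr5:138171884-138172133, minus strand) belong to genes that rose and have their E2F-like letters in capitals. Of the 25 G1/S genes that rose and had a promoter, 6 held these letters (24%), so most of those that rose did not. The 2 G2/M promoters (Ccnb2 at chr9:70421555-70421804 and Mki67 at chr7:135716380-135716629, both minus strand) belong to genes that fell and have CCAAT or its reverse complement in capitals. All are written 5′ to 3′ on the strand of the gene.
Uhrf1: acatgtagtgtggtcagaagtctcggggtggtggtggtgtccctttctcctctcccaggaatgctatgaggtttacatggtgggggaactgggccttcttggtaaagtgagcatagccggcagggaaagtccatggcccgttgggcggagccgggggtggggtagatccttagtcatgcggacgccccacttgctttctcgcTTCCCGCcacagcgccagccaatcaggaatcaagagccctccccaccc
Mcm7: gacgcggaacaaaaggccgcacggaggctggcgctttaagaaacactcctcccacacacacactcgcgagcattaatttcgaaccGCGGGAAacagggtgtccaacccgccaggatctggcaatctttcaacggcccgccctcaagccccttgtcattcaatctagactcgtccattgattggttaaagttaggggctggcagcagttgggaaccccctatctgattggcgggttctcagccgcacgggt
Ccnb2: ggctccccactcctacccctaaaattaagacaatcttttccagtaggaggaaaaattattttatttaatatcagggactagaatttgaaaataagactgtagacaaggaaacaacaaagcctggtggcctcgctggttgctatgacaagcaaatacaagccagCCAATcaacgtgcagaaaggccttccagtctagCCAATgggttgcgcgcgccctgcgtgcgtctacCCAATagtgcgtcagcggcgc
Mki67: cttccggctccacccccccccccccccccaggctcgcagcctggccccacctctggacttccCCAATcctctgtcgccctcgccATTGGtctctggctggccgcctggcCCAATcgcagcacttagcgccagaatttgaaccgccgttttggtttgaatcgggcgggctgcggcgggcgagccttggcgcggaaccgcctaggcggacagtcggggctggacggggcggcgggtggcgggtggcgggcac
The Uhrf1 match starts 48 bases before the gene start and the Mcm7 match 165 bases before it. Ccnb2 holds 3 CCAAT copies, starting 87, 54 and 21 bases before the gene start.

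Of the regulators of G1, Ccnd2, the D cyclin of stimulated B cells, rose late, from 11.21 and 10.86 at 0 h to 12.44 and 12.35 at 24 h (1.36 ± 0.17, adjusted p = 1.82e-05), with a 6 h mean of 10.97. The wild type rise was 1.41. Ccnd1 fell by 2.19 (10.80 and 10.48 to 8.35 and 8.54), and Ccnd3 read 10.66 and 10.21 at 0 h and 10.07 and 9.85 at 24 h, which passed only with the replicate block (adjusted p = 0.18, and 0.0033 with the block). Cdkn2b, which encodes the CDK4 and CDK6 inhibitor p15, rose from 6.84 and 6.93 to 8.24 and 8.08 (1.27 ± 0.15, adjusted p = 7.37e-06), more than in wild type by 0.90 ± 0.21 (adjusted p = 0.011), a call lost when single arrays were left out. Cdkn1b, which encodes p27, read 11.49 and 11.11 at 0 h and 11.01 and 10.80 at 24 h, a difference that passed only with the block (adjusted p = 0.131, and 0.00502 with the block). Cdk4 rose by 0.40 and Cdkn2a by 0.50, which completes the 4 higher of 22 tested genes, Ccnd1 being the 1 lower (5 with the block). Of all tested genes 14.9% were higher and 12.7% lower, so the higher count is near the share of all genes.

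FOXO-dependent and other quiescence genes, which mark resting lymphocytes, fell in 11 of 29 tested members (17 with the replicate block) and rose in 4, with a median of −0.38, and in wild type 23 fell and 1 rose. S1pr1, the receptor that lets lymphocytes leave tissue, read 12.24 and 12.07 at 0 h and 10.57 and 10.58 at 24 h (−1.58 ± 0.16, adjusted p = 2.42e-06). In wild type it reached 9.19 and 9.10, and the change differed by 1.40 ± 0.23 (adjusted p = 0.0011). Klf2, a transcription factor of quiescence and of S1pr1, went from 11.11 and 10.93 to 10.00 and 9.83 against 8.91 and 8.73 in wild type, a difference of 1.13 ± 0.24 (adjusted p = 0.00758). Txnip, an inhibitor of glucose uptake, changed by −1.52 against −2.34 in wild type, Tsc22d3, the glucocorticoid-induced GILZ gene, by −1.05 against −2.50, and Bcl6, the repressor of germinal centre cells, by −1.46 against −2.78. The differences were 0.82, 1.45 and 1.32 (adjusted p = 0.0143, 0.000632 and 0.0058). These genes thus fell in TAK1-deleted cells, and by less than in wild type. T cell markers moved with them, their mean level over 14 genes going from 9.43 and 9.12 to 8.78 and 8.81 in TAK1-deleted cells and from 10.14 and 9.81 to 8.27 and 8.21 in wild type, with a more positive change in TAK1-deleted cells for 11 of the 14 (4.62% of all tested genes), and their part in the smaller fall was not tested. Klf2 and Tsc22d3 are named after their values were seen. Il7r, the interleukin 7 receptor and itself one of those T cell markers, rose by 1.07 ± 0.32 in TAK1-deleted cells (9.81 and 9.10 to 10.60 and 10.44) and fell by 1.03 in wild type, a difference of 2.09 ± 0.45 (adjusted p = 0.00686). The count of 4 that rose, which also holds Gabarapl1, Tob2 and Btg2, was 1 without replicate 2 at 0 h or either 24 h array. The full count of 4 is near the share of all tested genes that rose (14.9%).

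Trafficking receptors were lower in 8 of 20 tested genes (5 without replicate 1 at 0 h) and higher in 4 (2 without replicate 1 at 24 h). Cnr2, the cannabinoid receptor of marginal zone B cells, fell by 2.19, Itgb7, an integrin chain of gut homing, by 1.56 and S1pr4 by 0.86. Ccr6, the receptor for Ccl20, rose from 10.77 and 10.51 to 12.20 and 11.88 (1.40 ± 0.17, adjusted p = 1.31e-05), and Ccr7, which draws cells to the T cell zone, from 12.59 and 12.62 to 13.26 and 13.21 (0.63 ± 0.12, adjusted p = 0.000775).

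Cholesterol biosynthesis had 17 of 20 tested genes higher, 0 lower and a median of 1.09, and the same count, 17 of 20, was higher in wild type. Cyp51, the lanosterol demethylase, read 7.69 and 7.33 at 0 h and 10.13 and 9.95 at 24 h (2.53 ± 0.19, adjusted p = 5.89e-08). Idi1, the isopentenyl diphosphate isomerase, went from 8.33 and 7.78 to 10.60 and 10.40 (2.45 ± 0.22), Hmgcs1, the HMG-CoA synthase, from 8.81 and 8.62 to 10.77 and 10.51 (1.92 ± 0.15), and Sqle, the squalene epoxidase, from 8.46 and 8.23 to 10.31 and 10.06 (1.84 ± 0.15). Each had reached a like or higher mean by 6 h, 10.26, 10.69, 11.05 and 10.62. Fatty acid synthesis had 5 of 15 genes higher (3 without replicate 2 at 24 h, and 2 without replicate 2 at 0 h or replicate 1 at 24 h) and 2 lower (a count near the 12.7% of all tested genes, 0 without replicate 1 at 0 h, 1 without replicate 2 at 24 h). Among these Fasn, the fatty acid synthase, rose by 0.37 against 1.08 in wild type, a difference of −0.71 ± 0.15 (adjusted p = 0.00692), and had been higher at 6 h, at 11.99 against 11.15 and 11.03 at 24 h.

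Cholesterol genes share the CCAAT letters in the promoter table. All 16 of the 20 genes that it held had a match within 250 bases before the start (100%), against 39.8% of tested genes, and the promoters of Idi1 (chr13:8885356-8885605, plus strand) and Hmgcs1 (chr13:119690101-119690350, plus strand) are shown for that reason, with CCAAT or its reverse complement in capitals.
Idi1: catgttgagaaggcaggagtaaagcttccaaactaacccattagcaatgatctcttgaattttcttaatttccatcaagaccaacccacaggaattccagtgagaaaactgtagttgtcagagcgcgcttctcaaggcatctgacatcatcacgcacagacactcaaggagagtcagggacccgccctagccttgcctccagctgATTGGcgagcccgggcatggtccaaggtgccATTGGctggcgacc
Hmgcs1: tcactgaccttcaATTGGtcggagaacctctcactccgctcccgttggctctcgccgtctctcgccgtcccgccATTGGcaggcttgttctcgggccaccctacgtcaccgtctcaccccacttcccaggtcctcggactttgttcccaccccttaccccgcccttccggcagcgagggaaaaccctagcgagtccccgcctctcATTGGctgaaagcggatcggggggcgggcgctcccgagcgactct
Idi1 holds 2 copies and Hmgcs1 holds 3 in this window. The same letters stand in the promoters of mitotic genes that fell, Ccnb2 and Mki67 among them.

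Ribosome biogenesis had 28 of 38 tested genes higher and 0 lower, with a median of 0.56, and all 38 were higher in wild type. At 24 h 29 of the 38 were lower than at 6 h and 0 higher, with a median of −0.59, where 8.05% of all tested genes were lower. The count higher than at 0 h was 13 without replicate 1 at 24 h, 15 without replicate 2 at 0 h and 18 without replicate 2 at 24 h. Nop16, a nucleolar protein, read 10.55 and 10.64 at 0 h and 11.51 and 11.49 at 24 h (0.91 ± 0.13, adjusted p = 4.81e-05) after 12.03 at 3 h. Pes1, of the large subunit pathway, rose by 0.94, Nop58, a core protein of box C/D snoRNPs, by 0.83 and Npm1, nucleophosmin, by 0.82. Proteasome subunits had 27 of 32 higher and 0 lower, with a median of 0.61, and 17 without replicate 2 at 0 h or without replicate 1 at 24 h. Psmd2, a subunit of the regulatory particle, read 11.37 and 11.06 at 0 h and 12.09 and 11.98 at 24 h (0.82 ± 0.13, adjusted p = 0.000196). Mitochondrial ribosomal proteins had 15 of 34 higher and 0 lower (9 without replicate 2 at 0 h, 6 without replicate 1 at 24 h, 25 with the block), led by Mrps7 at 1.04. Respiratory chain subunits had 20 of 36 higher and 0 lower (13 and 10 without replicates 1 and 2 at 0 h, 6 without replicate 1 at 24 h), led by Ndufb6 at 0.94. Aminoacyl-tRNA synthetases had 5 of 18 higher (2 without replicate 2 at 0 h or replicate 1 at 24 h, 8 with the block) and 1 lower (0 without any 1 of the 4 arrays), with a median of 0.23, where 15 of the 18 were higher in wild type. At 24 h 11 of these 18 were lower than at 6 h and 1 higher. Several of these counts against 0 h thus lean on replicate 1 at 24 h and on replicate 2 at 0 h.

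Genes of sugar and amino acid use changed gene by gene. Of 19 glucose uptake and glycolysis genes 11 were higher and 3 lower, with a median of 0.47, the lower count being near the share of all tested genes (12.7%). Pfkfb3, which makes the allosteric activator of phosphofructokinase, rose from 9.31 and 8.94 to 10.39 and 10.24 (1.19 ± 0.19, adjusted p = 0.000237) and had been 9.28 at 6 h, and Pgk1 rose from 10.97 and 10.87 to 12.12 and 11.87 (1.08 ± 0.15). Slc2a3, a glucose transporter gene, fell by 1.00. Of 28 genes of amino acid transport, serine synthesis and the ATF4 response 12 were higher and 1 lower than at 0 h. Compared with 6 h, 18 of the 28 were lower and 2 higher, where 8.05% of all tested genes were lower. Slc7a11, the cystine transporter, went from 7.01 and 6.77 to 10.29 and 10.12 (3.32 ± 0.19, adjusted p = 4.22e-09), against 6.70 and 6.74 to 8.87 and 8.33 in wild type, a difference of 1.43 ± 0.27 (adjusted p = 0.00318). Ddit4, which encodes the mTORC1 inhibitor REDD1, rose from 9.40 and 9.42 to 10.59 and 10.42 (1.09 ± 0.12) and fell by 0.43 in wild type, a difference of 1.53 ± 0.17 (adjusted p = 6.29e-05). Asns, asparagine synthetase, was the 1 member lower than at 0 h, from 10.35 and 9.64 to 8.51 and 8.23 (−1.63 ± 0.27, adjusted p = 0.000246), where wild type rose from 8.19 and 7.93 to 9.31 and 9.07. The difference of −2.75 ± 0.38 (adjusted p = 0.000274) includes the start, Asns being higher at 0 h in TAK1-deleted cells by 1.93 (adjusted p = 0.000442). Erythroid markers were higher in those arrays too, and their part in this start was not tested. The one-carbon enzymes Mthfd2 and Shmt1 rose by 1.10 and 1.20, the latter less than in wild type (2.13, difference −0.93 ± 0.21, adjusted p = 0.00965). Purine and pyrimidine synthesis had 10 of 23 higher and 1 lower, 5 higher without replicate 2 at 0 h or replicate 1 at 24 h, with Ctps, the CTP synthase, at 0.88 and the nucleoside diphosphate kinase Nme1 at 0.74.

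Genes of the resting B cell fell broadly. Of 14 pan B cell markers 10 were lower and 0 higher, with a median of −0.61, of 30 genes of the receptor and its proximal signalling 13 were lower and 3 higher, and of 19 inhibitory receptors and phosphatases 10 were lower and 1, Pdcd1, higher, with a median of −0.94. Cr2, the complement receptor CD21, read 12.59 and 12.49 at 0 h and 9.27 and 9.18 at 24 h (−3.31 ± 0.15, adjusted p = 4.63e-10). Cd22, an inhibitory lectin of the receptor complex, went from 13.26 and 13.10 to 11.47 and 11.35 (−1.76 ± 0.20), Fcer2a, the low-affinity IgE receptor CD23, from 13.22 and 12.99 to 10.96 and 10.77 (−2.24 ± 0.24), and Bank1, a scaffold of receptor signalling, from 13.11 and 12.93 to 11.68 and 11.55. These genes overlap in neither pair of arrays, and their changes in wild type were −3.36, −1.86, −2.47 and −1.75. The inhibitory receptor gene Siglecg (−1.42) and the lineage factor Pax5 (−0.94) fell as well, Cd79a fell by 0.69 and Ighm by 1.14. Cd22, Bank1 and Siglecg were above their 6 h means at 24 h, by 0.76, 1.74 and 1.05 (adjusted p = 0.0156, 5.97e-06 and 0.00117), the call for Cd22 being lost without either 24 h array or replicate 2 at 6 h (0.106, 0.0559 and 0.222). Vav3, a guanine exchange factor of receptor signalling, rose from 8.44 and 8.26 to 10.34 and 10.25 (1.94 ± 0.14, adjusted p = 3.14e-08), the largest of the 3 rises in the proximal signalling list. In bulk RNA such as this, fewer cells of a type and less RNA per cell cannot be told apart.

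MHC class II presentation genes were lower in 11 of 12 tested members and higher in 0, with a median of −0.71, and all 12 were lower in wild type. Ciita, the class II transactivator, read 11.73 and 11.60 at 0 h and 10.06 and 9.91 at 24 h (−1.68 ± 0.15, adjusted p = 4.74e-07). H2-Ob, a chain of the H2-DM inhibitor H2-O, fell from 13.53 and 13.51 to 12.36 and 12.35 (−1.17 ± 0.10), by less than in wild type (−1.96, difference 0.80 ± 0.14, adjusted p = 0.0015).

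Activation surface markers were higher in 9 of 20 tested genes and lower in 6 (3 without replicate 1 at 0 h or replicate 2 at 24 h). Il2ra, the interleukin 2 receptor alpha chain, read 8.91 and 8.60 at 0 h and 11.80 and 11.61 at 24 h (2.95 ± 0.25, adjusted p = 2.88e-07) and 12.13 at 6 h. Cd83, which stabilizes surface MHC class II, rose from 11.26 and 11.60 to 12.72 and 12.70, Tnfrsf9, which encodes 4-1BB, from 7.68 and 7.83 to 9.17 and 9.01, and the costimulatory ligand Cd86 from 10.21 and 9.81 to 10.70 and 10.49. Cd80, the other B7 ligand, rose from 9.45 and 8.80 to 10.36 and 10.22 (1.17 ± 0.29, adjusted p = 0.00737), while its change in wild type was −0.45, a difference of 1.62 ± 0.42 (adjusted p = 0.0224) that was lost when single arrays were left out. Icosl, the ligand of ICOS, changed by −2.68 (12.18 and 11.84 to 9.39 and 9.27) and the adhesion receptor Slamf1 by −2.44. Irf4, a transcription factor of activated B and plasma cells, stayed at 12.47 and 12.20 at 24 h from 11.02 and 10.69 (1.48 ± 0.14, adjusted p = 8.58e-07). Prdm1, the gene of Blimp-1, read 7.98 and 7.43 at 0 h and 7.74 and 7.36 at 24 h, which overlap, and Il10 read 5.81 and 5.80 at 0 h and 5.84 and 6.29 at 24 h (adjusted p = 0.747 and 0.472). These Il10 values lie below 7.45, the filter level, where a change can be missed.

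Interferon response genes were lower in 9 of 25 tested members (5 without replicate 1 at 0 h or replicate 1 at 24 h) and higher in 2. Cmpk2, a mitochondrial nucleotide kinase, read 9.82 and 9.56 at 0 h and 8.28 and 8.23 at 24 h (−1.44 ± 0.19, adjusted p = 2.98e-05), after 9.72 at 6 h. Usp18, the ISG15 protease, had risen to 11.31 at 6 h and stood at 10.33 and 10.11 at 24 h against 9.78 and 9.69 at 0 h (0.49 ± 0.15, adjusted p = 0.0208). Ifi27l2a was the other member that rose, from 9.13 and 9.10 to 11.16 and 10.93 (1.93 ± 0.13). With the replicate block 5 members were higher than at 0 h. Compared with 6 h, 17 of the 25 were lower at 24 h and 1 higher, where 8.05% of all tested genes were lower.

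Whether the response at 24 h varied with TAK1 was tested by subtracting the wild type change from that of TAK1-deleted cells. This called 1037 genes (8.66% of those tested), 553 with a more positive and 484 (4.04%) with a more negative change in TAK1-deleted cells, and 2633 with the replicate block. With the arrays quantile-normalized once more it called 1702, and without replicate 2 of TAK1-deleted cells at 24 h it called 683. Most called changes had the same direction in both genotypes: 1397 genes rose in both and 1287 fell in both. Opposite calls were few, with 47 genes that rose in TAK1-deleted cells and fell in wild type and 21 that did the reverse. The difference between the genotypes was called in all of these genes of opposite direction too. With 2 called changes of opposite sign from one fit this was nearly fixed in advance, so it is no separate evidence. Hmox1, Il7r, Ddit4, Ccl5, Cd14, Mmp8, Wfdc17 and Btg2 were among the former, and Asns, Fads2, Mki67, Ccna2, Plk1, Ube2c and Hmmr among the latter.

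**Figure D4:**
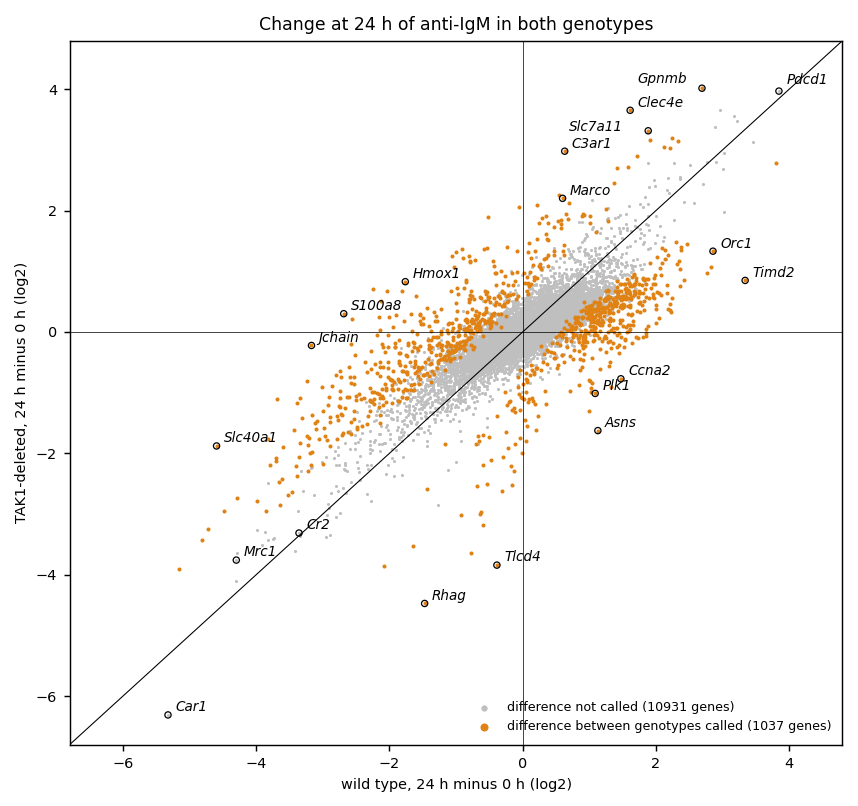
Change from 0 to 24 h (log2) in TAK1-deleted cells (vertical) against that in wild type cells (horizontal) for the 11968 tested genes, 2 arrays a group, with the line of equal change. The 1037 genes whose change differed between the genotypes are orange; Hmox1 (0.83 against −1.76) and Asns (−1.63 against 1.13) lie in the quadrants of opposite direction, and Pdcd1 (3.97 against 3.85) lies near the line.

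Several of the most positive differences were in genes also expressed by myeloid cells, and the markers of other cell types are therefore given here as a whole. Clec4e, the lectin Mincle, read 7.42 and 6.92 at 0 h and 10.93 and 10.72 at 24 h (3.65 ± 0.23, adjusted p = 1.16e-08), with a wild type rise of 1.61 and a difference of 2.04 ± 0.33 (adjusted p = 0.000886). C3ar1, the C3a receptor, went from 7.01 and 6.63 to 9.81 and 9.79 (difference 2.35 ± 0.22, adjusted p = 1.56e-05), with a lower start than in wild type by 0.79 (−0.79, adjusted p = 0.00922). Marco, a scavenger receptor of macrophages, went from 7.30 and 7.30 to 9.35 and 9.65 (difference 1.60 ± 0.22, adjusted p = 0.000271), and Gpnmb differed by 1.33 ± 0.23 (adjusted p = 0.0015). At 6 h these 4 genes averaged 8.19, 6.72, 7.10 and 6.40, each below both of its 24 h arrays.

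Of 22 monocyte or macrophage markers 12 were lower at 24 h than at 0 h and 3 higher, with a median of −0.74, and their mean level was 10.42 and 10.27 at 0 h and 9.34 and 9.31 at 24 h. In wild type the mean went from 10.43 and 10.43 to 8.14 and 8.10, 20 of the 22 being lower. The change was more positive in TAK1-deleted cells for 16 of the 22, against 4.62% of all tested genes. Against 6 h, 17 of the 22 were higher at 24 h, against 10.8% of all tested genes (8.05% were lower). Lyz2 and Adgre1, the genes of lysozyme and of a macrophage adhesion receptor, show the course, and are named after their values were seen. Lyz2 read 12.44 and 12.55 at 0 h, averaged 9.38 at 6 h and read 12.79 and 12.57 at 24 h, while wild type ended at 11.10 and 10.96. Adgre1 read 11.57 and 11.36 at 0 h, averaged 8.08 at 6 h and read 11.72 and 11.59 at 24 h. Hmox1, heme oxygenase, went from 11.76 and 11.57 through 8.59 at 6 h to 12.55 and 12.44, above its start (0.83 ± 0.18, adjusted p = 0.00259), where wild type fell by 1.76 (difference 2.59 ± 0.26, adjusted p = 2.32e-05). Other macrophage genes did not return to their starting level. Mrc1, the mannose receptor, read 10.42 and 10.16 at 0 h and 6.39 and 6.67 at 24 h (−3.76 ± 0.16). The complement chain gene C1qc fell by 2.95, to a mean of 8.79 at 24 h. That was above its 6 h mean of 6.84 (1.95 ± 0.20, adjusted p = 5.96e-06), so C1qc came back in part. None of the markers can be said to be absent on this scale, which has no zero. Clec4e, C3ar1, Marco and Gpnmb moved with these markers between 6 and 24 h, and the part of such cells in their rise was not tested.

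Neutrophil markers were lower in 8 of 18 tested genes and higher in 1, with a mean level of 9.44 and 9.26 at 0 h and 8.94 and 8.87 at 24 h, against 9.28 and 9.13 and then 7.17 and 7.27 in wild type. The change was more positive than in wild type in 13 of the 18, against 4.62% of all tested genes. S100a8, a calprotectin chain, read 9.36 and 9.70 at 0 h and 9.80 and 9.87 at 24 h (0.30 ± 0.23, adjusted p = 0.387), while wild type fell from 9.83 and 10.25 to 7.33 and 7.39, a difference of 2.99 ± 0.33 (adjusted p = 5.88e-05). S100a9 and Mmp8 differed by 2.78 and 2.96. Surface receptors of neutrophils fell in both genotypes, with Cxcr2 at −2.74 and −4.28 and Csf3r at −2.08 and −3.70.

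NK cell markers were lower in 13 of 14 tested genes, with a mean level of 8.50 and 8.30 at 0 h and 7.19 and 7.32 at 24 h. Ncr1, the NK receptor NKp46, fell from 9.22 and 8.63 to 6.41 and 6.46. The 1 that rose was Ccl5, a chemokine that other lymphocytes also make, from 11.11 and 11.09 to 12.43 and 12.49 (1.36 ± 0.12, adjusted p = 3.22e-07), where wild type fell by 0.58 (difference 1.94 ± 0.16, adjusted p = 9.3e-06). It started lower in TAK1-deleted cells by 0.95 (−0.95, adjusted p = 0.000163), as did 9 of the 14 NK markers, where 0.819% of all tested genes started lower. All 14 were lower in wild type, whose mean went from 9.53 and 9.32 to 7.09 and 7.14, and the change was more positive in TAK1-deleted cells for 7 of them, against 4.62% of all tested genes. Erythroid markers were lower in 17 of 18 tested genes, with a mean level of 9.86 and 9.49 at 0 h and 7.39 and 7.33 at 24 h. Car1, a carbonic anhydrase of erythroid cells, read 13.40 and 13.13 at 0 h and 6.88 and 7.02 at 24 h (−6.31 ± 0.21, adjusted p = 3.07e-11), and Rhag, a red cell membrane protein, 10.27 and 9.67 and then 5.65 and 5.34 (−4.47 ± 0.31). All 18 had started higher than in wild type (1.5% of all tested genes did), whose mean was 7.87 and 7.92 at 0 h and 7.19 and 7.36 at 24 h, so that the difference in the change of Rhag (−3.00 ± 0.45, adjusted p = 0.000502) includes a higher start. Tlcd4, which is not on the erythroid list, also had a negative difference in the change (−3.46 ± 0.55, adjusted p = 0.000766).

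T cell markers were lower in 5 of 14 tested genes (8 with the block) and higher in 1, Il7r, which did not pass without replicate 2 at 0 h or either 24 h array. In wild type all 14 were lower, the change was more positive in TAK1-deleted cells for 11 of the 14, with a median difference of 1.23, and 5 had started lower. Over all tested genes 4.62% had a more positive change and 0.819% started lower. Dendritic cell markers were lower in 6 of 12, with Cd209a at −3.90 and Clec9a at −3.29, and higher in 2, a count that was 0 without replicate 2 at 0 h or replicate 1 at 24 h and 1 without replicate 1 at 0 h or replicate 2 at 24 h. Their mean level was 9.93 and 9.58 at 0 h, then 8.63 and 8.55, against 9.86 and 9.75, then 7.85 and 7.93 in wild type, and the change was more positive in TAK1-deleted cells for 5 of the 12, beside the same 4.62% of all tested genes. Plasma cell markers had 1 of 9 higher, the syndecan gene Sdc1 (0.81), with 4 higher under the replicate block, and 1 lower, Derl3 (−0.77), which did not pass without replicate 1 at 0 h or either 24 h array. Jchain, the antibody joining chain, read 6.67 and 6.59 at 0 h and 6.53 and 6.28 at 24 h, while wild type fell from 11.93 and 11.95 to 8.98 and 8.56. The values in TAK1-deleted cells lie below 7.45, the filter level, where a change can be missed. Of 9 platelet or megakaryocyte markers 2 were higher (3 with the block) and 1 lower (2 with the block). Without the block, the plasma cell counts and the lower platelet count are near the shares of all tested genes, 14.9% higher and 12.7% lower. Of 6 mast cell or basophil markers 2 were lower, 0 without replicate 1 at 0 h or replicate 2 at 24 h and 1 without replicate 2 at 0 h or replicate 1 at 24 h.

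**Figure D5:**
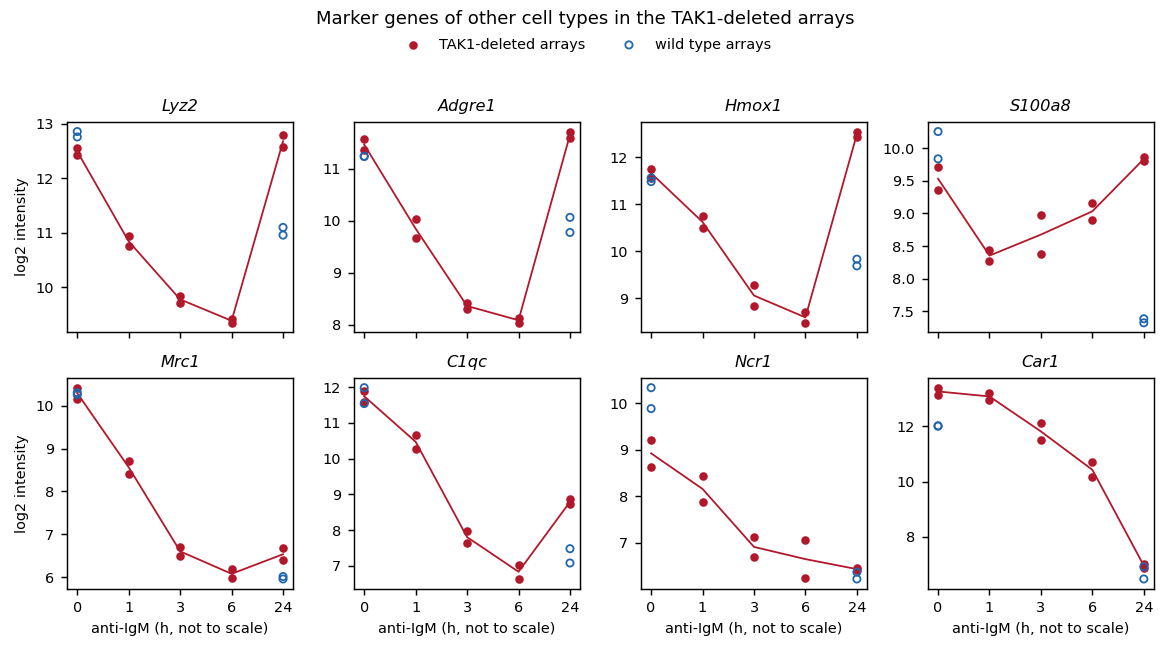
Log2 intensity of 8 genes of macrophages (Lyz2, Adgre1, Hmox1, Mrc1, C1qc), neutrophils (S100a8), NK cells (Ncr1) and erythroid cells (Car1) in the TAK1-deleted arrays (filled, 2 at each of 0, 1, 3, 6 and 24 h, line through the means) and the wild type arrays at 0 and 24 h (open). Lyz2, Adgre1 and Hmox1 fall to 9.38, 8.08 and 8.59 at 6 h and return at 24 h to or above their start, while Mrc1, Ncr1 and Car1 stay low.

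Some calls of the genes named above depended on 1 array. In the comparison of 24 h with 0 h, Btg2, Casp9, Ccna2, Cxcr5, Derl3, E2f2, Fads2, Fosb, Hmmr, Ikbkb, Plk1, Traf5 and Usp18 did not pass without replicate 1 at 0 h (adjusted p from limma between 0.0536 and 0.239). Without replicate 2 at 0 h this held for Btg2, Bub1b, Cd14, Cd80, Cd86, Cdk4, Egr1, Fasn, Il7r, Mmp8, Pim3, Tob2 and Usp18 (0.0674 to 0.252). Without replicate 1 at 24 h, Btg2, Bub1b, Casp9, Cd14, Cd80, Cd86, Cdk4, Cxcr5, Derl3, Egr1, Fasn, Fosb, Ikbkb, Il7r, Mmp8, Pim3, Tob2 and Usp18 did not pass (0.0591 to 0.186), and without replicate 2 at 24 h Btg2, Casp9, Ccna2, Cxcr5, Derl3, E2f2, Ikbkb, Il7r, Pim3, Tob2 and Traf5 did not (0.0508 to 0.158). The difference between the genotypes was likewise lost without 1 of the TAK1-deleted arrays for Txnip (without replicate 1 at 0 h), Cd80 and Dusp5 (replicate 2 at 0 h), Bcl2l1, Cd80, Cdkn2b, Dusp5 and Txnip (replicate 1 at 24 h) and Cd80, Dusp5 and Shmt1 (replicate 2 at 24 h), with adjusted p between 0.0506 and 0.104. Without 1 of the wild type arrays it was lost for Bcl2l1, Cd80 and Dusp5 (replicate 1 at 0 h), Cdkn2b (replicate 2 at 0 h), Shmt1 (replicate 1 at 24 h) and Cd80, Dusp5 and Txnip (replicate 2 at 24 h), with adjusted p between 0.0505 and 0.0938. At 0 h the difference between the genotypes did not pass without replicate 1 of TAK1-deleted cells for Ccne2, Fas, Mki67, Orc1, Plk1 and Rrm2. Without replicate 2 of those cells it did not pass for C3ar1 and Fas. Without replicate 1 of wild type this held for C3ar1, Fas, Mki67, Plk1 and Rrm2 (0.0621 to 0.274), and without replicate 2 for Fas, Plk1 and Rrm2 (0.0555 to 0.251).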

How the data were processed

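The 20 samples were hybridised to Affymetrix Mouse Gene 1.0 ST arrays. Per the submitters' processing notes, the authors made the deposited log2 values by RMA in Affymetrix Expression Console 1.0, and no further scaling was applied here. RMA leaves a background in the values and detection p-values were not used, so folds of dim genes can be understated. Of 35556 probe sets 23410 were in the platform annotation, 21789 with 1 gene symbol and 1621 with several, and probe sets without 1 symbol were left unnamed. Probe sets above 7.45 (the median of all values) on at least 2 arrays were kept (20326, of which 13135 had 1 symbol), and the brightest per gene stood for it, which left 11968 genes.

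limma 3.58.1, run in R 4.3.3, estimated the 10 group means from all 20 arrays together (lmFit, then eBayes with an intensity trend), with Benjamini-Hochberg adjustment over all genes tested and calls at an adjusted p below 0.05. The scripts were tested on simulated data. Same-numbered replicates deviated together in all 45 pairs of groups (correlations of 0.191 to 0.769, and 0.433 for the groups compared), so the numbers were taken to pair the samples. Unless the block is named, calls and p-values come from the fit without this pairing. That fit called 3301 genes between 0 and 24 h in TAK1-deleted cells, against 5340 with the block. A gene said not to pass may therefore pass once the pairing is used. The fit with the replicate number as a block is given for some of the results it changed, and other counts of list members also moved with it. The number of arrays limits the precision.

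Genes were named by a rule (the 15 largest rises and falls, up to 4 called members of each list in each direction, the 10 largest differences between the genotypes in each direction, and 25 genes in any case). Mki67, Ccna2, Ccne2, Rrm2, Klf2, Tsc22d3, Rcan1, Rnf128, Lag3, Lyz2, Adgre1, Bmf, Gadd45b, Mcm2 and Mcm7 were added after their values were seen. The comparison and the gene lists were chosen with earlier results of these data known. Alternatives were the block, leaving out each array, other filters, all probe sets of a gene averaged, no intensity trend, a further quantile normalization and a fit of only the groups compared.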

Additional observations from a re-analysis of the deposited data

Results flagged for a closer look

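The results below were singled out because the change from 0 to 24 h differed between the genotypes by the test of that difference itself (limma, adjusted over all genes tested), in genes named in the report. Values are the log2 change in TAK1-deleted cells minus that in wild type cells. The difference was positive for S100a8 (2.99), Mmp8 (2.96), S100a9 (2.78), Hmox1 (2.59), C3ar1 (2.35), Il7r (2.09), Clec4e (2.04), Ccl5 (1.94), Cd80 (1.62), Marco (1.60), Ddit4 (1.53), Tsc22d3 (1.45), Slc7a11 (1.43), S1pr1 (1.40), Gpnmb (1.33), Bcl6 (1.32), Rnf128 (1.30), Trp53inp1 (1.30), Fas (1.17), Dusp5 (1.14), Klf2 (1.13), Lag3 (1.09), Bmf (0.99), Cdkn2b (0.90), Txnip (0.82), H2-Ob (0.80), Gadd45b (0.77) and Slc2a6 (0.77). The difference was negative for Tlcd4 (−3.46), Rhag (−3.00), Asns (−2.75), Ccna2 (−2.25), Plk1 (−2.10), Rrm2 (−1.92), Ccne2 (−1.89), Orc1 (−1.53), Myc (−0.99), Uhrf1 (−0.97), Shmt1 (−0.93), Mcm3 (−0.92), Bcl2l1 (−0.82) and Fasn (−0.71). Single arrays that stood apart within a group were not looked for, because each group holds 2 arrays.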

How the results depend on the processing

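With the replicate block, 5340 genes changed between 0 and 24 h in TAK1-deleted cells (2879 higher, 2461 lower), 4267 between 6 and 24 h (2122 higher, 2145 lower) and 837 differed between the genotypes at 0 h (491 higher, 346 lower in TAK1-deleted cells). The difference between the genotypes in the 24 h change was called for 2633 genes with the block (1323 higher, 1310 lower) and for 1702 with a further quantile normalization (916 higher, 786 lower). At 0 h that normalization called 506 genes (316 higher, 190 lower), and a fit of only the groups compared called 150 (98 higher, 52 lower). The cause was not tested. Leaving out 1 array at a time gave 2069 to 2461 genes between 0 and 24 h in TAK1-deleted cells (928 to 1506 higher, 944 to 1404 lower), 4167 to 4660 in wild type (1942 to 2790 higher, 1696 to 2448 lower), 683 to 957 for the difference (356 to 539 higher, 262 to 543 lower), 1297 to 1419 between 6 and 24 h (747 to 968 higher, 406 to 609 lower) and 119 to 200 at 0 h (81 to 165 higher, 23 to 87 lower). Over the 4 arrays left out in turn the sign turned in Myc, Prdm1 and Rrm2, which had no call: Myc ranged from −0.19 (without replicate 2 at 0 h) to 0.27 and was −0.02 without replicate 1 at 24 h, Prdm1 from −0.43 to 0.12 (0.03 without replicate 2 at 24 h) and Rrm2 from −0.36 to 0.21 (0.06 without replicate 2 at 24 h). With 2 arrays a group, leaving out 1 leaves a single array whose spread is assumed to be that of the other groups.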
